A study of Mus musculus with 2 samples.

Results

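Glycolysis and the response to low oxygen were followed through 35 genes, which were picked by symbol and were all found among the 32285 genes of the count tables. Of these, 20 carry glucose into the cell, break it down, export lactate or hold pyruvate back from the mitochondria, and the others belong to the hypoxia response. Within the hypoxia response, the 10 genes Bnip3, Ndrg1, Ankrd37, Egln1, Egln3, Ero1l, P4ha1, P4ha2, Car9 and Adm also served to rank cells, and Bnip3l, Higd1a, Ddit4, Mif and Hif1a make up the other 5. Every gene was read in 3 classes of cells set by UMIs, the unique molecular identifiers that each stand for a captured transcript. Tumour cells held 0 UMIs of the pan-leukocyte gene Ptprc and at least 1 of Hmga2, macrophages at least 20 UMIs of the complement genes C1qa, C1qb and C1qc together, and T cells at least 2 UMIs of Cd3d, Cd3e and Cd3g together.

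The study set MC38-RSPO3-OE tumours, grown from MC38 cells that overexpress the secreted Wnt amplifier RSPO3, against MC38-Ctrl tumours. MC38 is a mouse colon carcinoma line of C57BL/6 origin, and both tumours were grown in C57BL/6 mice, so tumour and host cells are of the same species. The sources used here do not give the sex or age of the hosts, the tumour site, the time of harvest, the number of mice per library or the vector of the control cells. Droplet 3′ single-cell RNA sequencing gave 1 library per group. With 1 library on each side no test of the groups can be made and no difference has a replicate check, and all intervals are 95% intervals that cover counting error only.

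Glycolysis turns glucose into pyruvate in the cytosol and yields energy without oxygen, provided that pyruvate is passed on to lactate. When oxygen is plentiful, the prolyl hydroxylases of the Egln genes mark the HIF-1α protein for destruction through VHL. When oxygen is scarce, HIF-1α persists, pairs with ARNT and switches on glucose transporters, most glycolytic enzymes, Ldha, Pdk1 and genes such as Bnip3, Ankrd37 and Egln3 itself. Parts of solid tumours far from blood vessels are known for this state, and activated macrophages and T cells are known to run the same pathway.

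The libraries held 7314 (RSPO3-OE) and 7301 (Ctrl) cell barcodes, with 7 barcode sequences in common, and 155615189 and 143881763 UMIs, and 6993 and 6895 cells were kept. The tumour cell rule took 4229 RSPO3-OE and 4323 Ctrl cells with a median of 25376 and 21437 UMIs, the macrophage rule 1214 and 1176 cells with 11921 and 12677 UMIs, and the T cell rule 416 and 208 cells with 6861 and 7096 UMIs. Of the tumour cells, 529 and 766 held exactly 1 Hmga2 UMI, and 416 and 676 cells without Ptprc, C1q and Cd3 UMIs lay just outside with 0. In macrophages 26 and 8 cells held 20 to 24 C1q UMIs, and 23 and 15 cells outside held 15 to 19. In T cells 6 and 1 cells held exactly 2 Cd3 UMIs, and 122 and 59 outside held 1. Rspo3 gave 12392 UMIs, or 107 CPM (counts per 1000000 UMIs of the class; 105 to 109), in RSPO3-OE tumour cells. In Ctrl tumour cells it gave 0 UMIs, with an exact upper limit of 0.0347 CPM. In their own class all 12 macrophage markers and all 6 tumour cell markers stood over 20 CPM in both libraries, as did 10 (RSPO3-OE) and 9 (Ctrl) of 10 T cell markers. These lists hold the genes that set the classes, namely Hmga2, C1qa, C1qb, C1qc, Cd3d, Cd3e and Cd3g. The class rules ask for UMIs of those genes, so their levels say nothing further about the classes. The tumour cell class also carried fibroblast genes. The sum of Lum, Dcn, Pdgfra, Col3a1 and Pdgfrb was 3588 CPM in RSPO3-OE tumour cells against 2390.4 CPM in Ctrl tumour cells. A set of 4 Y chromosome genes summed to 0.396 (RSPO3-OE) and 0.226 CPM (Ctrl) in tumour cells. Its sum was 148.7 (RSPO3-OE) and 95.2 CPM (Ctrl) in macrophages, and 157.9 (RSPO3-OE) and 119.8 CPM (Ctrl) in T cells. Which cells gave the fibroblast UMIs was not tested.

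Some values stood apart between the libraries and touch the comparisons of groups below. Immediate early genes took 1.22% of tumour cell UMIs in RSPO3-OE against 0.705% in Ctrl, and 0.895% of macrophage UMIs in RSPO3-OE against 0.516% in Ctrl. Mitochondrial genes took 2.84% in RSPO3-OE tumour cells against 4.02% in Ctrl. Red cell genes summed to 0.130 CPM in RSPO3-OE macrophages against 229 CPM in Ctrl macrophages. Tumour cell RNA was present in the immune classes: the 6 tumour cell markers summed to 117 CPM (RSPO3-OE) and 61.4 CPM (Ctrl) in macrophages and to 186 and 474 CPM in T cells, beside 1754 and 1291 CPM in tumour cells, and none of the 6 was at 0. Hmga2 stood at 4.46% and 2.59% of its tumour cell level in macrophages and at 7.96% and 21.0% in T cells. In macrophages Cald1 stood at 6.81% and 3.88% and Col5a2 at 13.9% and 9.01%, while Krt8 had the opposite order, at 4.39% and 6.51%. In T cells Cald1 stood at 11.5% and 33.4%, Col5a2 at 3.76% and 31.9% and Krt8 at 11.3% and 132%. The last value came from 4 of 208 cells. The part of these in the results was not tested, except where values without the cells concerned are given.

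The promoters of the genes were searched for the core of the HIF binding site, the letters ACGTG or GCGTG on either strand, over 250 bases before and 50 after the transcript start. CACGTG counts as a match on each strand. RefSeq promoters on GRCm38.p6 matched 31 of the 35 genes, all except Slc2a3, Bnip3l, Ndrg1 and Ero1l. ACGTG occurred in 67.7% of the 31 and in 19.7% of 27025 promoters of the whole table, GCGTG in 54.8% and 32.5%, and either of them in 83.9% and 43.8%. The median GC content was 65% in the 31 and 52.7% in the whole table. These letters were not found in the windows of Aldoa, Gpi1, Hk1, Pkm and Tpi1. A match describes letters and not binding. The promoters below are shown because their genes carry the patterns described further on. Bnip3 (chr7:138909457-138909756, minus strand) and Ankrd37 (chr8:45999801-46000100, minus strand) helped to rank cells, Slc2a1 (chr4:119108495-119108794, plus strand) differed most between cells at the ends of that ranking among the members that took no part in it, and Ldha (chr7:46845554-46845853, plus strand) held the most matches of the 31, at 7. Pfkp (chr13:6648722-6649021, minus strand) was the glycolysis gene furthest apart between the libraries in tumour cells, and Tpi1 (chr6:124814109-124814408, minus strand) held no match. Capitals mark the matches, and each line runs 5′ to 3′ along the strand of the gene.
Bnip3: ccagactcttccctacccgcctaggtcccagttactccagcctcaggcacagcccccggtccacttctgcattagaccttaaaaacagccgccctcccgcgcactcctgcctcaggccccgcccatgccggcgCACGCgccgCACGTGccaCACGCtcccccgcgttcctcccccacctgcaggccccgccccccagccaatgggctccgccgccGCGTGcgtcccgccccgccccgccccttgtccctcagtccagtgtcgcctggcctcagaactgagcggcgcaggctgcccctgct
Ankrd37: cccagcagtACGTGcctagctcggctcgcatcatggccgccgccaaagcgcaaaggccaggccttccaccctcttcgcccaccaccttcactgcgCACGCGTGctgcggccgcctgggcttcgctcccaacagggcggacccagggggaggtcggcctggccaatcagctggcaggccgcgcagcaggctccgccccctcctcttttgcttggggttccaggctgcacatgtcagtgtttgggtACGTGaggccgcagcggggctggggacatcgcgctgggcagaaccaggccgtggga
Slc2a1: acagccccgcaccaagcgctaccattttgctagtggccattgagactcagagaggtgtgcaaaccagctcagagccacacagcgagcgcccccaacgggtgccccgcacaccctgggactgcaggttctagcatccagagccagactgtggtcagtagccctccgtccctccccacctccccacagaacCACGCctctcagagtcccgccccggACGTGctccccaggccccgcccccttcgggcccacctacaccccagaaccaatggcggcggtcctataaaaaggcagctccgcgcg
Ldha: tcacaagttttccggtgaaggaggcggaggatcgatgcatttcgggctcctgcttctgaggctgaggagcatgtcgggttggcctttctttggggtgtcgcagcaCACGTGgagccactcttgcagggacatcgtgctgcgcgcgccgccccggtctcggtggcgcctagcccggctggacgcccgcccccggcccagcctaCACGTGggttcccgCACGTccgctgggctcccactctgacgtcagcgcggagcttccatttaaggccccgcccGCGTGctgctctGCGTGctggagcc
Pfkp: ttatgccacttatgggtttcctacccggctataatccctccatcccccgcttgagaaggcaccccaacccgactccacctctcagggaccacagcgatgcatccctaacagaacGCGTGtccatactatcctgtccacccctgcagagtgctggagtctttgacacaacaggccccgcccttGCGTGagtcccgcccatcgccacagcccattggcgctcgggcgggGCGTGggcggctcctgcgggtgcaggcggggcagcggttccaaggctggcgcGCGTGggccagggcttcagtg
Tpi1: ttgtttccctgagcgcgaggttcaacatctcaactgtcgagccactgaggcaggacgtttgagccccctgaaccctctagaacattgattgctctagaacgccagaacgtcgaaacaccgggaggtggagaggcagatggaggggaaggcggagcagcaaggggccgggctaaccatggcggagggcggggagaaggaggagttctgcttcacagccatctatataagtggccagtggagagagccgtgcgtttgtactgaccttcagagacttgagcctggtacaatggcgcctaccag

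The first comparison asks how the genes differed between RSPO3-OE and Ctrl tumour cells. Of the 20 glycolysis genes 12 were lower in RSPO3-OE, beside 61.3% of all genes with at least 100 UMIs, so that share was near the background. Each of the 12 was lower by less than 1.5-fold, while Pfkp and Ndrg1 were higher and Ddit4 lower past that size. The 35 genes together took 0.990% of tumour cell UMIs in RSPO3-OE against 1.25% in Ctrl, and the 20 glycolysis genes 0.792% against 1.01%. The 10 ranking genes took 0.0804% against 0.0791%, so the lower sum in RSPO3-OE came from the glycolysis genes and the other 5, of which Mif is the most abundant. Much of it lay in Gapdh, the member with the most UMIs. Without Gapdh the members took 0.687% of tumour cell UMIs in RSPO3-OE against 0.821% in Ctrl.

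At least 100 UMIs over both libraries were read for 33 of the 35 genes in tumour cells, all except Adm and Car9. Of these, 2 were at least 1.5-fold higher in RSPO3-OE and 1 at least 1.5-fold lower. Of all 12202 genes with as many UMIs, 8.81% were as much higher and 13.1% as much lower, and of those with a mean of at least 20 CPM 5.63% and 5.07%. The count of members past that size was thus near the background or under it. Their median log2 ratio, RSPO3-OE over Ctrl, was -0.15, beside -0.09 for all genes with 100 UMIs and -0.04 for those of at least 20 CPM. The log2 ratio was below 0 for 20 of the members, beside 61.3% of all genes.

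Glucose entry differed little. Slc2a1, the main glucose transporter of most cells, stood at 90.2 CPM (88.5 to 92.0) in RSPO3-OE tumour cells against 89.5 CPM (87.7 to 91.3) in Ctrl, with overlapping intervals. Slc2a3 (ENSMUSG00000003153, chr6:122727809-122801640, minus strand, GRCm38), a high-affinity transporter typical of lymphocytes and neurons, was read at 0.733 CPM in RSPO3-OE against 0.772 CPM in Ctrl. The hexokinases, which trap glucose in the cell, were slightly higher in RSPO3-OE. Hk1 stood at 51.4 CPM (50.1 to 52.7) in RSPO3-OE against 46.2 CPM (45.0 to 47.6) in Ctrl and Hk2 at 40.5 CPM (39.3 to 41.6) in RSPO3-OE against 35.1 CPM (34.0 to 36.3) in Ctrl, with log2 ratios of 0.15 and 0.20.

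Phosphofructokinase, the committed step, differed in its make-up. Pfkp (ENSMUSG00000021196, chr13:6579768-6648777, minus strand), the platelet form, stood at 49.2 CPM (47.9 to 50.5) in RSPO3-OE tumour cells against 29.7 CPM (28.6 to 30.7) in Ctrl, a log2 ratio of 0.73 (0.67 to 0.79). The liver form Pfkl stood at 46.7 CPM (45.5 to 48.0) in RSPO3-OE against 63.2 CPM (61.7 to 64.7) in Ctrl, a log2 ratio of -0.44 (-0.49 to -0.38). The 2 forms thus lay on opposite sides of equality, with no overlap of intervals. The muscle form Pfkm was the least read, at 11.2 CPM in RSPO3-OE against 9.55 CPM in Ctrl. Pfkfb3, which makes the activator of phosphofructokinase, was read at 0.612 CPM in RSPO3-OE against 0.565 CPM in Ctrl.

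Most enzymes further down were lower in RSPO3-OE. Gapdh (ENSMUSG00000057666, chr6:125161715-125166467, minus strand), which passes electrons to NAD, stood at 3024 CPM (3014 to 3034) in RSPO3-OE tumour cells against 4263 CPM (4251 to 4276) in Ctrl, a log2 ratio of -0.50. Pgam1, phosphoglycerate mutase, stood at 348 CPM (344 to 351) in RSPO3-OE against 499 CPM (495 to 503) in Ctrl, a log2 ratio of -0.52. The log2 ratio was -0.35 for Gpi1, -0.35 for Aldoa, -0.32 for Eno1, -0.28 for Tpi1, -0.26 for Pkm and -0.26 for Ldha, which turns pyruvate into lactate. Pgk1, at 558 CPM in RSPO3-OE against 592 CPM in Ctrl, had a log2 ratio of -0.09 that turned to 0.01 with median-of-ratios scaling and to 0.03 when each cell's own CPM was averaged. Median-of-ratios scaling also turned the low Slc2a3 and no other member with 100 UMIs in tumour cells.

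Pdk1 and Slc16a3 went in opposite directions, while Ldha, given above, was lower in RSPO3-OE like Pdk1. Pdk1, the kinase that shuts pyruvate dehydrogenase, stood at 30.2 CPM (29.2 to 31.2) in RSPO3-OE tumour cells against 41.2 CPM (40.0 to 42.4) in Ctrl, a log2 ratio of -0.45. Slc16a3, the exporter of lactate, stood at 40.8 CPM (39.7 to 42.0) in RSPO3-OE against 31.4 CPM (30.3 to 32.5) in Ctrl, a log2 ratio of 0.38. Neither reached 1.5-fold. The sources used here do not say how reads shared with near-identical copies of Gapdh, Eno1 and the other enzymes were counted.

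**Figure D1:**
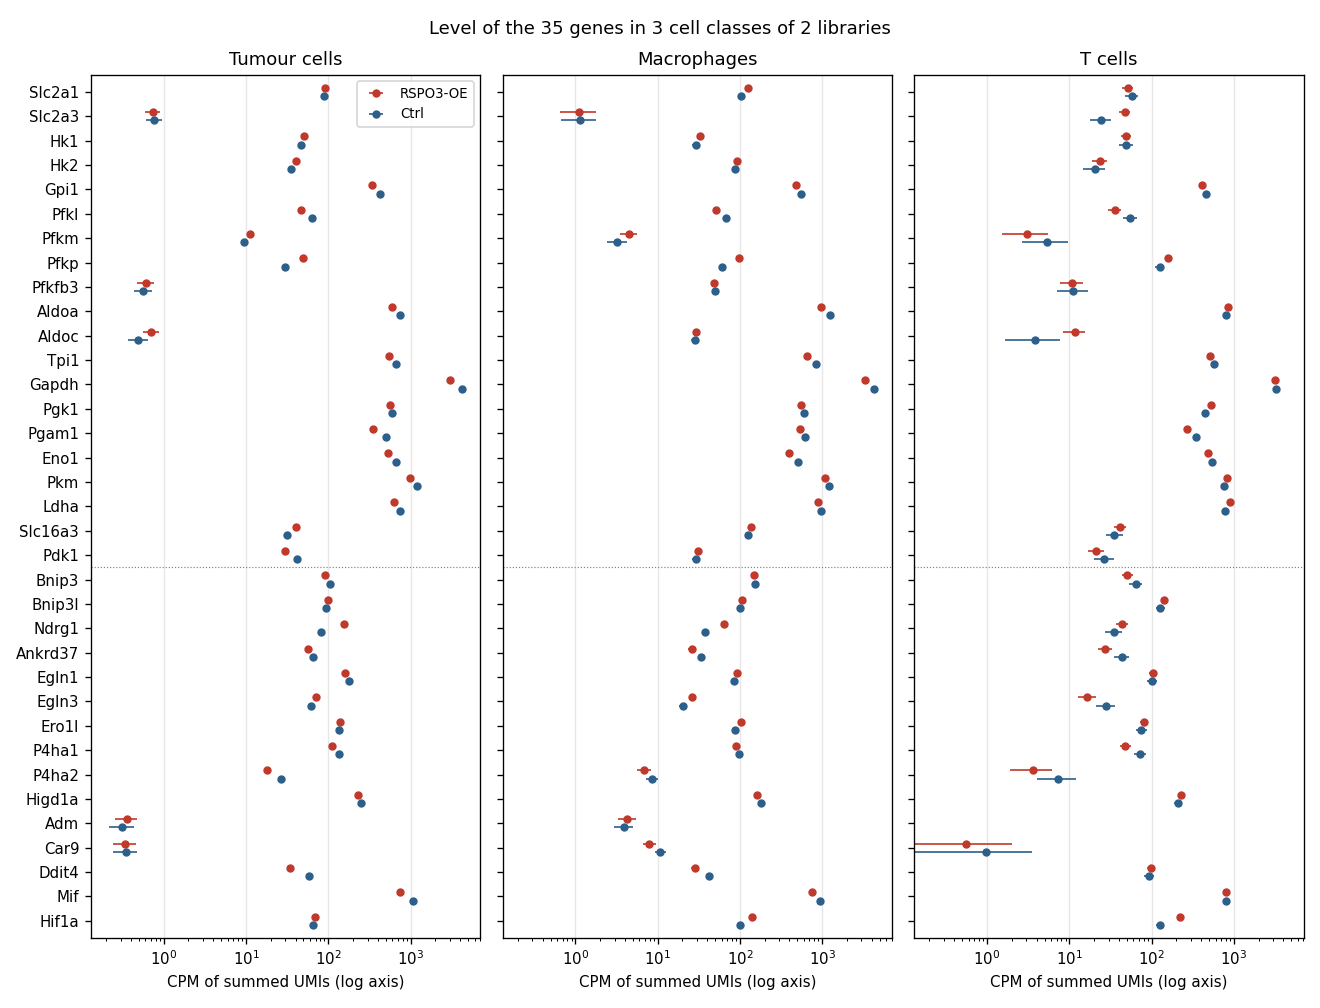
Level of each of the 35 genes in the class sums, as CPM of summed UMIs on a log axis, in RSPO3-OE (red, upper point) and Ctrl (blue, lower point), with bars for 95% counting intervals; genes with 0 UMIs have no point. The dotted line parts the 20 glycolysis genes, above, from the hypoxia response genes, and Pfkfb3, Aldoc, Adm and Car9 stand under 1 CPM in tumour cells but over 3 CPM in macrophages.

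The hypoxia response genes split in tumour cells. Ndrg1 (ENSMUSG00000005125, chr15:66929318-66969640, minus strand), a stress-induced gene, was the furthest apart, at 156 CPM (154 to 158) in RSPO3-OE tumour cells against 81.3 CPM (79.6 to 83.0) in Ctrl, a log2 ratio of 0.94 (0.91 to 0.98). Ddit4 (ENSMUSG00000020108, chr10:59949669-59951834, minus strand), an inhibitor of mTORC1, was lower, at 34.4 CPM (33.4 to 35.5) in RSPO3-OE against 58.0 CPM (56.6 to 59.5) in Ctrl, a log2 ratio of -0.75 (-0.81 to -0.70). Mif, a cytokine and HIF target, stood at 742 CPM (737 to 747) in RSPO3-OE against 1068 CPM (1062 to 1074) in Ctrl, a log2 ratio of -0.52.

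The mitophagy receptors differed little, with Bnip3 at 91.9 CPM (90.1 to 93.6) in RSPO3-OE against 106 CPM (104 to 107) in Ctrl and Bnip3l at 101 CPM (98.7 to 102) in RSPO3-OE against 94.9 CPM (93.1 to 96.8) in Ctrl. Of the HIF prolyl hydroxylases, Egln1 stood at 159 CPM (157 to 161) in RSPO3-OE against 177 CPM (174 to 179) in Ctrl and Egln3 at 71.4 CPM (69.9 to 73.0) in RSPO3-OE against 62.2 CPM (60.8 to 63.8) in Ctrl. Both collagen prolyl hydroxylases were lower in RSPO3-OE, P4ha1 at 112 CPM (110.2 to 114) in RSPO3-OE against 137 CPM (135 to 139) in Ctrl and P4ha2 at 18.2 CPM (17.4 to 19.0) in RSPO3-OE against 26.9 CPM (26.0 to 28.0) in Ctrl. The directions were thus opposite within the Bnip3 and the Egln pair and alike within the P4ha pair, where P4ha2 had a log2 ratio of -0.57. Hif1a (ENSMUSG00000021109, chr12:73901375-73947530, plus strand) itself, at 69.7 CPM in RSPO3-OE against 65.4 CPM in Ctrl, the endoplasmic reticulum oxidase Ero1l, at 137 CPM in RSPO3-OE against 136 CPM in Ctrl, the mitochondrial protein Higd1a, at 232 CPM in RSPO3-OE against 250.2 CPM in Ctrl, and Ankrd37, at 57.2 CPM in RSPO3-OE against 65.0 CPM in Ctrl, had log2 ratios between -0.19 and 0.09. The hormone Adm, at 0.353 CPM in RSPO3-OE against 0.311 CPM in Ctrl, and the carbonic anhydrase Car9, at 0.336 CPM in RSPO3-OE against 0.349 CPM in Ctrl, were barely read.

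**Figure D2:**
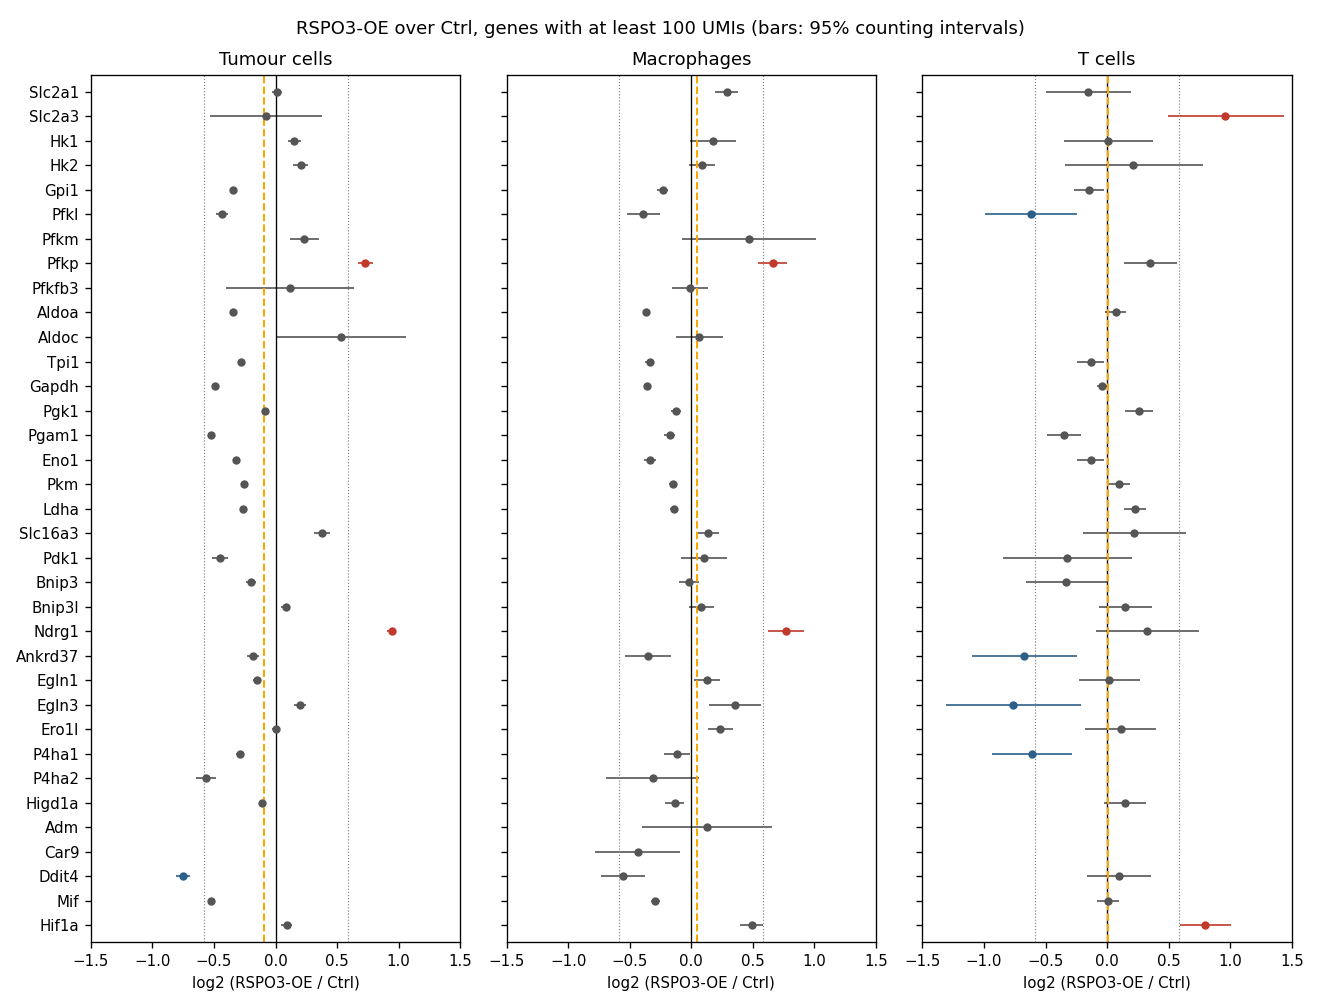
Log2 ratio of CPM, RSPO3-OE over Ctrl, for the genes with at least 100 UMIs in each class, with 95% counting intervals; red points are at least 1.5-fold higher, blue points at least 1.5-fold lower, dotted lines mark 1.5-fold and the orange dashed line marks the median of all genes with 100 UMIs. In tumour cells and macrophages Pfkp and Ndrg1 are the red points, and in T cells Slc2a3 and Hif1a.

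Macrophages show how host cells of the same tumours differed in these genes. Pfkp and Ndrg1 were again past 1.5-fold, and Hif1a was higher without reaching it. With cells thinned to 2000 UMIs, Hif1a passed 1.5-fold, at a log2 ratio of 0.62. At least 100 UMIs were read for 34 of 35 genes, all except Slc2a3. Of these, 2 were at least 1.5-fold higher in RSPO3-OE and 0 at least 1.5-fold lower, beside 9.03% and 3.59% of 9807 genes, and 7.37% and 1.44% of those of at least 20 CPM. The median log2 ratio was -0.07, beside 0.05 for all genes, and 19 of the members had a ratio below 0, beside 43.3% of all genes. The 20 glycolysis genes took 0.957% of UMIs in RSPO3-OE macrophages against 1.14% in Ctrl.

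In macrophages Pfkp stood at 97.2 CPM (92.3 to 102) in RSPO3-OE against 61.4 CPM (57.6 to 65.3) in Ctrl, a log2 ratio of 0.66 (0.55 to 0.78). Ndrg1 stood at 64.4 CPM (60.4 to 68.5) in RSPO3-OE against 37.8 CPM (34.8 to 40.9) in Ctrl, a log2 ratio of 0.77 (0.62 to 0.92), which was 0.43 and under 1.5-fold with cells thinned to 2000 UMIs. Without the macrophages that held any Hmga2 UMI, which left 1124 and 1130 cells, these ratios were 0.65 and 0.73, so both were nearly as large without cells that carried this tumour cell transcript, where 7.92% of all genes were as much higher and 3.75% as much lower. Hif1a stood at 141 CPM (135 to 147) in RSPO3-OE against 100.4 CPM (95.5 to 105) in Ctrl, a log2 ratio of 0.49 (0.40 to 0.58), and of 0.52 without those cells. The macrophages left still held tumour cell RNA. Krt8 stood at 7.24 CPM in RSPO3-OE against 1.85 CPM in Ctrl, while Cald1 went the other way, at 9.21 CPM against 14.8 CPM. The part of this RNA in the macrophage ratios was not tested.

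Egln3, Slc2a1 and Ero1l came next among the members of at least 20 CPM. Egln3 stood at 26.3 CPM (23.8 to 29.0) in RSPO3-OE against 20.6 CPM (18.4 to 22.9) in Ctrl, Slc2a1 at 126 CPM (120.1 to 131) in RSPO3-OE against 103 CPM (98.1 to 108) in Ctrl and Ero1l at 103 CPM (98.2 to 108) in RSPO3-OE against 87.6 CPM (83.1 to 92.3) in Ctrl, with log2 ratios of 0.35, 0.29 and 0.24. At the low end, Ddit4 stood at 28.3 CPM (25.7 to 31.1) in RSPO3-OE macrophages against 41.7 CPM (38.6 to 45.0) in Ctrl, a log2 ratio of -0.56. Ddit4 was thus lower in both classes. The macrophage value lay just under 1.5-fold and passed it under 5 of the alternatives, at -0.79 at its lowest. Gapdh stood at 3357 CPM (3328 to 3386) in RSPO3-OE against 4312 CPM (4279.9 to 4344) in Ctrl, Aldoa at 966 CPM (950.3 to 982) in RSPO3-OE against 1244 CPM (1227 to 1262) in Ctrl and Tpi1 at 661 CPM (649 to 674) in RSPO3-OE against 836 CPM (822 to 850.3) in Ctrl. Pfkl stood at 51.1 CPM (47.6 to 54.8) in RSPO3-OE against 66.9 CPM (63.0 to 71.1) in Ctrl and Ankrd37 at 26.1 CPM (23.6 to 28.8) in RSPO3-OE against 33.3 CPM (30.6 to 36.3) in Ctrl, and these 5 log2 ratios lay between -0.39 and -0.34. Pkm and Ldha had log2 ratios of -0.15 and -0.14 in macrophages.

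T cells differed in other members, and their values rest on few cells. Of the 29 genes with at least 100 UMIs, 2 were at least 1.5-fold higher in RSPO3-OE (Slc2a3 and Hif1a) and 4 at least 1.5-fold lower (Pfkl, Ankrd37, Egln3 and P4ha1), beside 6.8% and 5.31% of 5765 genes, and 6.2% and 5.38% of those of at least 20 CPM. The median log2 ratio was 0.02, beside 0.01 for all genes, and 12 members had a ratio below 0, beside 48.5% of all genes. The 20 glycolysis genes took 0.844% of UMIs in RSPO3-OE T cells against 0.840% in Ctrl.

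Slc2a3 stood at 47.0 CPM (40.2 to 54.6) in RSPO3-OE T cells against 24.2 CPM (17.99 to 32.0) in Ctrl, a log2 ratio of 0.96 (0.49 to 1.44). Hif1a stood at 219.6 CPM (205 to 235) in RSPO3-OE against 127 CPM (112 to 143) in Ctrl, a log2 ratio of 0.80 (0.59 to 1.002). Leaving out T cells with an Hmga2 UMI, a choice made after seeing the data, kept 395 and 190 cells and removed 12.3% of RSPO3-OE and 28.2% of Ctrl T cell UMIs. The ratios were then 0.69 for Slc2a3 and 0.70 for Hif1a. Without cells holding Hmga2 or C1q UMIs, with 281 and 125 cells left, they were 0.94 and 0.67. Both genes thus stayed past 1.5-fold without these cells, but the T cells left still held tumour cell RNA. Without cells holding Hmga2 UMIs, Cald1 stood at 6.62 CPM in RSPO3-OE against 35.8 CPM in Ctrl. Without cells holding Hmga2 or C1q UMIs, Cald1 stood at 7.56 CPM in RSPO3-OE against 51.2 CPM in Ctrl. Krt8 went the other way, at 4.10 and 5.20 CPM in RSPO3-OE against 0 UMIs in Ctrl. The part of this RNA in the T cell ratios was not tested.

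The genes at least 1.5-fold lower in T cells changed more when those cells were left out. Egln3 gave 60 UMIs in RSPO3-OE against 58 in Ctrl, and stood at 16.6 CPM (12.7 to 21.4) in RSPO3-OE against 28.1 CPM (21.4 to 36.4) in Ctrl, a log2 ratio of -0.76 (-1.31 to -0.21). Ankrd37 stood at 27.4 CPM (22.3 to 33.3) in RSPO3-OE against 43.6 CPM (35.1 to 53.6) in Ctrl, P4ha1 at 47.8 CPM (41.0 to 55.5) in RSPO3-OE against 73.2 CPM (62.0 to 85.9) in Ctrl and Pfkl at 35.7 CPM (29.8 to 42.4) in RSPO3-OE against 54.8 CPM (45.2 to 65.9) in Ctrl, with log2 ratios of -0.67, -0.61 and -0.62. Without the T cells holding Hmga2 UMIs, Ankrd37, at -0.60, was the 1 member of 27 with 100 UMIs that was lower past 1.5-fold, beside 3.37% of all genes lower and 6.55% higher. Without cells holding Hmga2 or C1q UMIs it was P4ha1, at -0.84, beside 2.84% lower and 6.9% higher. There Ankrd37, at -0.77 on 48 and 37 UMIs, and Egln3, at -0.94 on 23 and 20, were not counted because they had under 100 UMIs. Pfkl had a log2 ratio of -0.28. With the mean of each cell's own CPM in place of summed UMIs, none of these genes was lower past that size, and Egln3 had a log2 ratio of 0.13.

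The other T cell members with at least 100 UMIs stayed within 1.5-fold. Under that limit, Aldoc gave 42 UMIs in RSPO3-OE against 8 in Ctrl, P4ha2 13 against 15 and Pfkm 11 against 11, with log2 ratios of 1.58 (0.47 to 2.88), -1.02 (-2.21 to 0.16) and -0.81 (-2.16 to 0.54). Pfkp stood at 159.6 CPM (147 to 173) in RSPO3-OE T cells against 125 CPM (110.3 to 141) in Ctrl, Ndrg1 at 43.7 CPM (37.1 to 51.1) in RSPO3-OE against 34.9 CPM (27.3 to 44.0) in Ctrl, Pgk1 at 534 CPM (510.2 to 558) in RSPO3-OE against 447 CPM (418 to 476) in Ctrl and Ldha at 907 CPM (876 to 938) in RSPO3-OE against 775 CPM (738 to 814) in Ctrl. Their log2 ratios were 0.35, 0.32, 0.26 and 0.23. On the lower side Pgam1 stood at 273 CPM (256 to 291) in RSPO3-OE against 348 CPM (323 to 375) in Ctrl and Bnip3 at 50.9 CPM (43.8 to 58.8) in RSPO3-OE against 64.0 CPM (53.5 to 75.9) in Ctrl, with log2 ratios of -0.35 and -0.33. For Hk1 and Mif, at 0.01 and 0.01, the sign turned with median-of-ratios scaling.

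The classes were also set against each other within each library. Macrophages held several members that tumour cells barely expressed. Pfkfb3 was read at 48.9 CPM in RSPO3-OE macrophages and 49.2 CPM in Ctrl macrophages, against 0.612 (RSPO3-OE) and 0.565 CPM (Ctrl) in tumour cells, and Aldoc, the brain aldolase, at 29.4 (RSPO3-OE) and 28.1 CPM (Ctrl) against 0.707 (RSPO3-OE) and 0.490 CPM (Ctrl). Car9 stood at 7.95 (RSPO3-OE) and 10.8 CPM (Ctrl) in macrophages against 0.336 (RSPO3-OE) and 0.349 CPM (Ctrl) in tumour cells, and Adm at 4.24 (RSPO3-OE) and 3.88 CPM (Ctrl) against 0.353 (RSPO3-OE) and 0.311 CPM (Ctrl). These 4 genes were higher in macrophages in both libraries. The lactate exporter Slc16a3 was also higher there, at 136 (RSPO3-OE) and 124 CPM (Ctrl) against 40.8 (RSPO3-OE) and 31.4 CPM (Ctrl), as was Hk2, at 93.4 (RSPO3-OE) and 87.9 CPM (Ctrl) against 40.5 (RSPO3-OE) and 35.1 CPM (Ctrl).

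Other members were lower in macrophages than in tumour cells of the same library. The log2 ratio, macrophages over tumour cells, was -1.44 (RSPO3-OE) and -1.60 (Ctrl) for Egln3, -1.41 (RSPO3-OE) and -1.66 (Ctrl) for P4ha2, -1.32 (RSPO3-OE) and -1.55 (Ctrl) for Pfkm, -1.28 (RSPO3-OE) and -1.10 (Ctrl) for Ndrg1 and -1.13 (RSPO3-OE) and -0.96 (Ctrl) for Ankrd37. T cells were higher than tumour cells in Slc2a3, at log2 ratios of 6.00 (RSPO3-OE) and 4.97 (Ctrl), in Pfkfb3, at 4.14 (RSPO3-OE) and 4.30 (Ctrl), in Aldoc, at 4.04 (RSPO3-OE) and 2.99 (Ctrl) on few UMIs, in Pfkp, at 1.70 (RSPO3-OE) and 2.08 (Ctrl), and in Hif1a, at 1.66 (RSPO3-OE) and 0.95 (Ctrl). Adm gave 0 UMIs in T cells of both libraries, where 3 counts would be 0.830 CPM in RSPO3-OE T cells and 1.45 CPM in Ctrl T cells.

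The leading paralog differed between classes of both libraries for the hexokinases and the Bnip3 pair. Slc2a1, Aldoa, Egln1 and P4ha1 led their families in every class and library. Among the phosphofructokinases, Pfkp led in all 3 classes of RSPO3-OE. In Ctrl, Pfkl led in tumour cells, at 61.7%, and in macrophages, at 50.9%, and Pfkp led in T cells. In tumour cells Bnip3l led in RSPO3-OE and Bnip3 in Ctrl. On the scale of UMIs, with 3′ tags not divided by length, Hk2 made up 73.9% (RSPO3-OE) and 75.1% (Ctrl) of hexokinase UMIs in macrophages, 32.3% (RSPO3-OE) and 29.4% (Ctrl) in T cells, and 44.0% (RSPO3-OE) and 43.2% (Ctrl) in tumour cells. Pfkp made up 63.6% (RSPO3-OE) and 46.6% (Ctrl) of phosphofructokinase UMIs in macrophages, 80.5% (RSPO3-OE) and 67.5% (Ctrl) in T cells, and 45.9% (RSPO3-OE) and 29.0% (Ctrl) in tumour cells. The Pfkp share was thus higher in RSPO3-OE than in Ctrl in all 3 classes, while the Hk2 share lay within 3 percentage points of Ctrl in each class. Slc2a3 took 47.8% (RSPO3-OE) and 29.8% (Ctrl) of the UMIs of both glucose transporters in T cells, 0.874% (RSPO3-OE) and 1.08% (Ctrl) in macrophages and 0.805% (RSPO3-OE) and 0.856% (Ctrl) in tumour cells. Bnip3 made up 58.5% (RSPO3-OE) and 60.2% (Ctrl) of the Bnip3 and Bnip3l sum in macrophages, 26.4% (RSPO3-OE) and 33.3% (Ctrl) in T cells, and 47.8% (RSPO3-OE) and 52.6% (Ctrl) in tumour cells. Aldoa took nearly all aldolase UMIs, with Aldoc at 2.95% (RSPO3-OE) and 2.21% (Ctrl) in macrophages, 1.35% (RSPO3-OE) and 0.475% (Ctrl) in T cells and 0.120% (RSPO3-OE) and 0.0654% (Ctrl) in tumour cells. Egln3 made up 22.0% (RSPO3-OE) and 19.4% (Ctrl) of the Egln1 and Egln3 sum in macrophages, 13.8% (RSPO3-OE) and 21.6% (Ctrl) in T cells and 31.02% (RSPO3-OE) and 26.1% (Ctrl) in tumour cells, while P4ha2 made up 7.09% (RSPO3-OE) and 8.07% (Ctrl) of the P4ha1 and P4ha2 sum in macrophages, 6.99% (RSPO3-OE) and 9.04% (Ctrl) in T cells and 14.0% (RSPO3-OE) and 16.4% (Ctrl) in tumour cells.

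**Figure D3:**
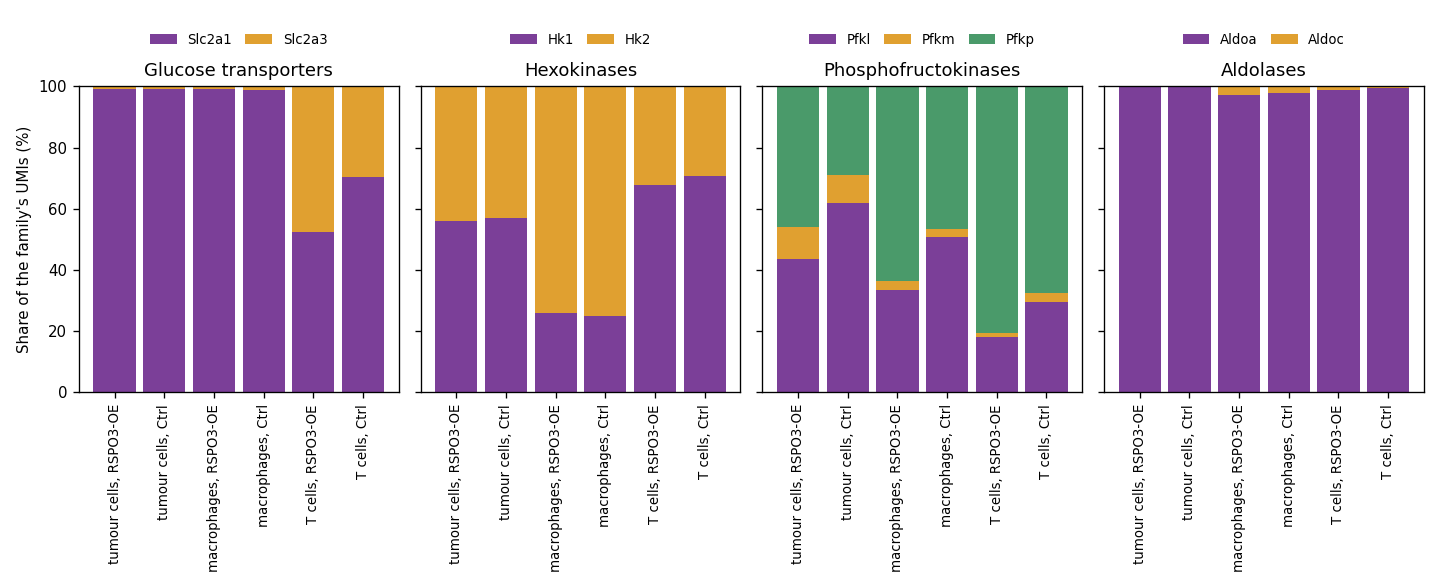
Share of each family's UMIs, in percent, that each paralog made up in tumour cells, macrophages and T cells of RSPO3-OE and Ctrl; the parts of a bar sum to 100%. Pfkp makes up 45.9% in RSPO3-OE and 29.0% in Ctrl tumour cells, and Slc2a3 is visible in T cells, at 47.8% and 29.8%.

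The next question is whether the members varied together among cells of 1 class. Cells were thinned to a common depth, 10000 UMIs for tumour cells and 5000 for macrophages, and ranked by the summed UMIs of the 10 ranking genes. This left 4162 RSPO3-OE and 3808 Ctrl tumour cells, with 67 and 515 too shallow, and 1166 and 1145 macrophages, with 48 and 31 too shallow. The top 10% of tumour cells, 416 and 381 cells, held 38.2% and 39.9% of the ranking UMIs.

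The glycolysis genes, which took no part in the ranking, followed it. In RSPO3-OE tumour cells they took 0.545% of UMIs in the bottom 10%, 0.645% in the middle 10% and 1.82% in the top 10% of cells, and in Ctrl tumour cells 0.721%, 0.852% and 2.14%. The larger step lay between the middle and the top.

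Between the top and the bottom 10% of tumour cells, 17 of the 20 glycolysis genes had at least 100 UMIs in both libraries, and these were at least 1.5-fold higher at the top, beside 7.31% of 9201 genes in RSPO3-OE and 7.83% of 9057 genes in Ctrl. Their median log2 ratio, top over bottom, was 1.87 in RSPO3-OE and 2.05 in Ctrl, beside -0.18 and -0.17 for all genes. The filter asked for 100 UMIs over both ends, of which the bottom alone held at least 79 for each of the 17 genes, and left out Slc2a3, Aldoc and Pfkfb3. Top against bottom, Slc2a3 stood at 0.645 against 0.951 CPM (RSPO3-OE) and 0.118 against 1.40 CPM (Ctrl), Aldoc at 1.93 against 0.871 CPM (RSPO3-OE) and 0.236 against 0.501 CPM (Ctrl) and Pfkfb3 at 1.72 against 0.555 CPM (RSPO3-OE) and 0.826 against 0.300 CPM (Ctrl), so Slc2a3 was not higher at the top. Slc2a1 differed most among the measured members not used for ranking, at 394 CPM in the top against 32.6 CPM in the bottom in RSPO3-OE and 397 against 30.2 CPM in Ctrl, log2 ratios of 3.60 (RSPO3-OE) and 3.71 (Ctrl). Slc16a3 followed, with log2 ratios of 3.39 (RSPO3-OE) and 3.09 (Ctrl).

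The enzymes lay between. Ldha had log2 ratios, top over bottom, of 1.86 (RSPO3-OE) and 1.91 (Ctrl), Pdk1 of 2.34 (RSPO3-OE) and 2.58 (Ctrl), and Gapdh of 1.48 (RSPO3-OE) and 1.18 (Ctrl). Of the genes with no motif match in the promoter window, Tpi1 had 1.87 (RSPO3-OE) and 1.90 (Ctrl), Aldoa 2.63 (RSPO3-OE) and 2.38 (Ctrl), Gpi1 2.39 (RSPO3-OE) and 2.63 (Ctrl), Pkm 1.30 (RSPO3-OE) and 1.21 (Ctrl) and Hk1 0.90 (RSPO3-OE) and 1.31 (Ctrl). Tpi1, with no match, and Ldha, with 7, were thus close to each other. The Hif1a transcript, at 0.87 (RSPO3-OE) and 0.88 (Ctrl), differed less than these enzymes, and Higd1a, at 2.93 (RSPO3-OE) and 2.82 (Ctrl), more.

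Other values moved with the ranking. Proliferation genes together gave 744 CPM in the top and 2025 CPM in the bottom 10% of RSPO3-OE tumour cells, and 825 and 1754 CPM in Ctrl. Mitochondrial genes took 2.29% of UMIs in the top and 2.88% in the bottom in RSPO3-OE, and 2.97% and 4.13% in Ctrl. The median depth was 20319.5 UMIs per cell in the top and 29023 in the bottom in RSPO3-OE, and 19830 and 22841 in Ctrl, so the cells at the top were not the deeper ones. Rspo3 stood at 179 CPM in the top and 71.1 CPM in the bottom in RSPO3-OE. The part of these in the pattern was not tested.

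**Figure D4:**
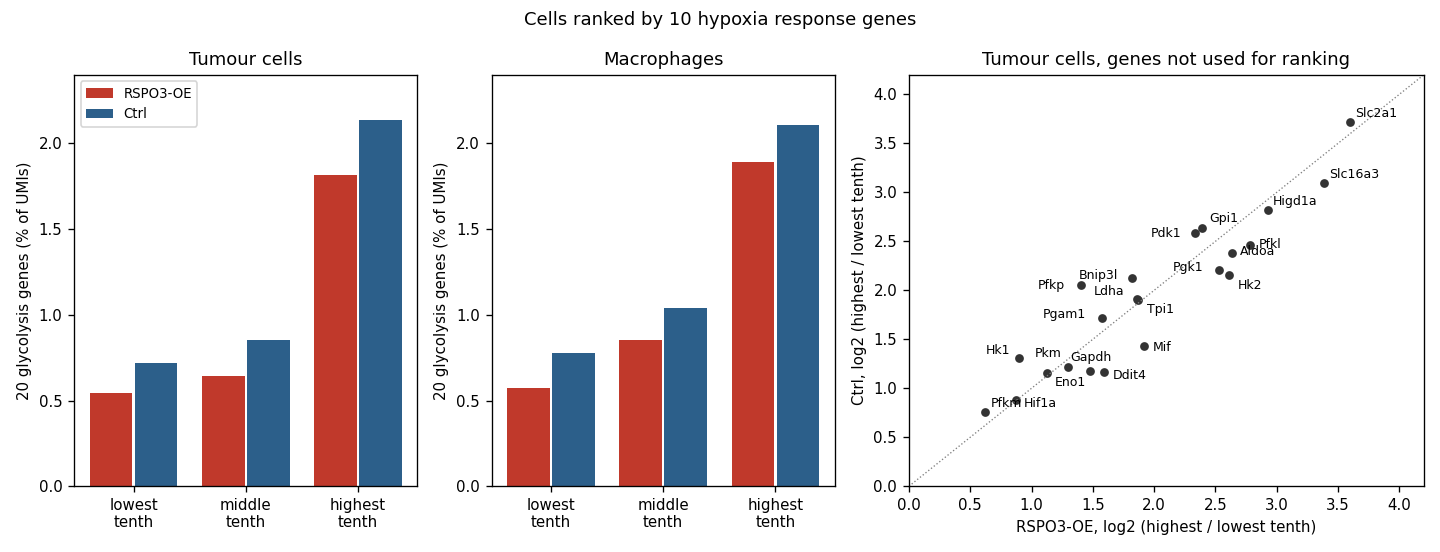
Left and middle, percent of UMIs taken by the 20 glycolysis genes in the bottom, middle and top 10% of cells ranked by 10 other hypoxia response genes, in RSPO3-OE (red) and Ctrl (blue) tumour cells and macrophages. Right, log2 ratio of CPM, top over bottom, for tumour cells of RSPO3-OE (x axis) and Ctrl (y axis), 1 point per gene not used for ranking with at least 100 UMIs in both; the dotted line marks equal ratios, and Slc2a1 lies furthest out at 3.60 (RSPO3-OE) and 3.71 (Ctrl).

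The glycolysis genes of macrophages took 0.574% of UMIs in the bottom, 0.853% in the middle and 1.89% in the top 10% in RSPO3-OE, and 0.775%, 1.04% and 2.11% in Ctrl. Since fewer macrophages were ranked, a limit on the UMIs of both ends would let some genes pass through the top alone, so genes of at least 20 CPM over all macrophages of a library were taken, a choice made after seeing the data. Of the 20 glycolysis genes, 18 had that level in each library, all except Slc2a3 and Pfkm, and these were at least 1.5-fold higher at the top, beside 10.7% of 5461 genes in RSPO3-OE and 10.2% of 5220 in Ctrl. Their median log2 ratio was 1.77 in RSPO3-OE and 1.68 in Ctrl, beside -0.12 and -0.19 for all genes. Slc2a3 stood at 0.709 CPM in the top against 1.96 CPM in the bottom in RSPO3-OE macrophages and at 1.34 CPM in the top against 1.92 CPM in the bottom in Ctrl, and Pfkm at 2.83 CPM in the top against 2.62 CPM in the bottom in RSPO3-OE and at 6.04 CPM in the top against 1.28 CPM in the bottom in Ctrl, on fewer than 10 UMIs at each end. Slc2a1 again differed most, at 3.06 (RSPO3-OE) and 3.32 (Ctrl). Other values moved with this ranking too. C1qa stood at 5021 CPM in the top against 7938 CPM in the bottom in RSPO3-OE macrophages and at 5086 CPM in the top against 7639 CPM in the bottom in Ctrl. Hmga2 stood at 6.38 CPM in the top against 5.89 CPM in the bottom in RSPO3-OE macrophages and at 19.5 CPM in the top against 2.56 CPM in the bottom in Ctrl, so this tumour cell transcript was higher at the top in Ctrl. Proliferation genes gave 228 CPM in the top against 478 CPM in the bottom in RSPO3-OE and 248 against 654 CPM in Ctrl, and mitochondrial genes took 2.58% against 3.51% of UMIs in RSPO3-OE and 2.74% against 3.93% in Ctrl. Their part in the macrophage pattern was not tested. The median depth was 11478 UMIs in the top and 12213 in the bottom in RSPO3-OE, and 11867 and 12603 in Ctrl.

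The library difference was also read within the ranked cells. The summed glycolysis genes had a log2 ratio, RSPO3-OE over Ctrl, of -0.41 (-0.42 to -0.39) in the bottom, -0.40 (-0.42 to -0.39) in the middle and -0.23 (-0.24 to -0.22) in the top 10% of tumour cells. In macrophages it was -0.43 (-0.47 to -0.39), -0.28 (-0.32 to -0.25) and -0.16 (-0.18 to -0.13). The sum was thus lower in RSPO3-OE throughout. In tumour cells Gapdh, with the most UMIs of all members, had log2 ratios of -0.60, -0.59 and -0.29 in the bottom, middle and top, while the median over the 17 glycolysis genes with 100 UMIs was -0.21, -0.21 and -0.19, so the sum moved toward equality more than the median. Ndrg1, itself used for ranking, had log2 ratios of 1.28, 0.998 and 0.65 in the bottom, middle and top of tumour cells, and Pfkp, which was not used, of 0.99, 0.86 and 0.34. Pfkp stood at 36.4 CPM in RSPO3-OE against 18.3 CPM in Ctrl in the bottom and at 96.3 CPM in RSPO3-OE against 75.9 CPM in Ctrl in the top 10%.

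Correlation was also read across tumour cells. With cells thinned to 10000 UMIs and counts on a log scale, all 28 (RSPO3-OE) and 29 (Ctrl) members of at least 20 CPM correlated with the summed ranking genes above the 95th percentile of other genes, each ranking gene being taken out of its own sum. That percentile was 0.09 over 5498 genes in RSPO3-OE and 0.11 over 5667 genes in Ctrl. These are descriptions across the ranked cells, and the cells of each correlation share a library. Aldoa had r of 0.62 (RSPO3-OE) and 0.62 (Ctrl), Bnip3 0.61 (RSPO3-OE) and 0.65 (Ctrl), and Pgk1 0.59 (RSPO3-OE) and 0.57 (Ctrl). Hk1, at 0.11 (RSPO3-OE) and 0.18 (Ctrl), Hif1a, at 0.13 (RSPO3-OE) and 0.15 (Ctrl), and Ddit4, at 0.16 (RSPO3-OE) and 0.12 (Ctrl), lay lowest. In macrophages 30 of 30 members of at least 20 CPM in RSPO3-OE and 29 of 30 in Ctrl stood above that percentile.

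Among the 378 pairs of the 28 members over 20 CPM in both libraries, the median r was 0.27 in RSPO3-OE tumour cells and 0.29 in Ctrl. The highest was Gapdh with Pgk1 in RSPO3-OE, at 0.67, and Gapdh with Mif in Ctrl, at 0.63. Pairs within the ranking genes had a median of 0.36 and 0.37, and pairs of a glycolysis gene with a ranking gene 0.31 and 0.32, so glycolysis genes were about as tied to ranking genes as to each other, at 0.28 and 0.27. Ero1l, singled out after its values were seen, was uneven among cells, with a variance of 9.62 (RSPO3-OE) and 9.82 (Ctrl) times its mean. The 95th percentiles over other genes, which were not matched in mean level, were 2.76 and 2.80. This was not particular to Ero1l. Gapdh stood higher, at 12.84 (RSPO3-OE) and 11.99 (Ctrl). Other members such as Pgk1 and Aldoa also passed these percentiles in both libraries, while others such as Hk1 and Hif1a did not.

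**Figure D5:**
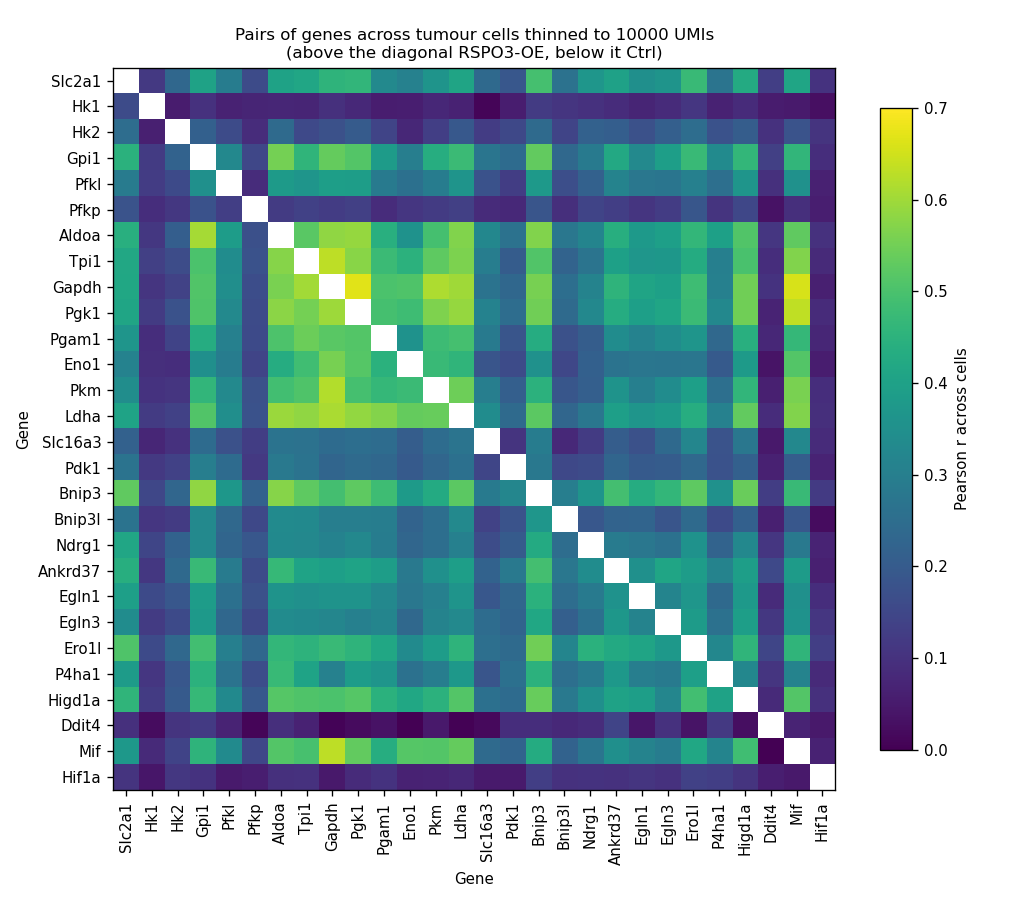
Pearson r across tumour cells thinned to 10000 UMIs for each pair of the 28 members of at least 20 CPM in both libraries, with RSPO3-OE above the diagonal and Ctrl below it; values below 0 are drawn as 0. Gapdh with Pgk1, at 0.67, is the highest pair in RSPO3-OE, while Hk1, Pfkp, Ddit4 and Hif1a form stripes of low values.

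Outside the 35 genes, the 15 of at least 20 CPM whose correlation with the ranking sum was highest in the lower of both libraries were named by rule. Fam162a led, at r of 0.51 (RSPO3-OE) and 0.56 (Ctrl), followed by the metallothionein Mt1, at 0.47 (RSPO3-OE) and 0.48 (Ctrl), the angiogenic factor Vegfa, at 0.44 (RSPO3-OE) and 0.49 (Ctrl), and Bsg, the partner of lactate transporters, at 0.39 (RSPO3-OE) and 0.45 (Ctrl). Next were Fau, 2410006H16Rik, Tpt1, Rps27, Rps14, Eif1, Pgm1, Rpl23, Fth1, Gas5 and Rps24, with r between 0.28 and 0.41. Several of these encode ribosomal proteins.

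Among RSPO3-OE tumour cells, the members were also set side by side by the cell's own Rspo3 UMIs. The 348 cells with at least 10 Rspo3 UMIs had a median of 28748 UMIs and the 3295 cells with 0 a median of 24467. Of 30 members with 100 UMIs, 3 were at least 1.5-fold higher in the cells with Rspo3 and 0 lower, beside 2.3% and 3.62% of 11240 genes. In cells with Rspo3 against cells with 0, these were Slc16a3, at 66.7 against 36.1 CPM, Ero1l, at 201 against 126 CPM, and Bnip3, at 127 against 84.7 CPM. The median log2 ratio was 0.23, beside -0.02 for all genes. Pfkp, at 48.1 against 49.3 CPM, and Ndrg1, at 167 against 155 CPM, which were furthest apart between the libraries among the higher genes, differed little by Rspo3 UMIs.

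A wider list of 48 genes of the same pathways, which also holds regulators, the pentose phosphate branch, serine synthesis and pyruvate dehydrogenase, was read in the same way. In tumour cells 42 had 100 UMIs, with 3 at least 1.5-fold higher (Gbe1, Loxl2 and Myc), 5 at least 1.5-fold lower (Bpgm, Slc2a6, Eno2, Hif1an and Psph) and a median log2 ratio of -0.20. Of all genes, 8.81% were as much higher and 13.1% as much lower, so these counts lie near the background. Myc, a driver of glycolytic genes, stood at 76.3 CPM (74.7 to 77.9) in RSPO3-OE tumour cells against 50.5 CPM (49.2 to 51.9) in Ctrl, and Psph, of serine synthesis, at 46.6 CPM (45.4 to 47.9) in RSPO3-OE against 76.4 CPM (74.7 to 78.0) in Ctrl. Bhlhe40 and Slc16a1 had log2 ratios of 0.49 and 0.46, and Pgm2 and Pdhb of -0.57 and -0.50.

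In macrophages 39 of the wider list had 100 UMIs, with 6 at least 1.5-fold higher (Slc16a1, Bhlhe40, Vegfa, Plod2, Phgdh and Arnt), 0 at least 1.5-fold lower and a median of 0.08, beside 9.03% higher and 3.59% lower of all genes. Bhlhe40, a HIF-responsive repressor, stood at 118 CPM (113 to 124) in RSPO3-OE macrophages against 41.8 CPM (38.7 to 45.1) in Ctrl, Vegfa at 309 CPM (300.3 to 318) in RSPO3-OE against 177 CPM (171 to 184) in Ctrl, and Arnt, the partner of HIF-1α, at 34.9 CPM (32.0 to 38.01) in RSPO3-OE against 22.5 CPM (20.3 to 24.98) in Ctrl. Taldo1, Fam162a and Pgd were the lowest, at log2 ratios of -0.46, -0.35 and -0.34.

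In T cells 26 had 100 UMIs, with 2 higher (Bhlhe40 and Hif1an), 2 lower (Myc and Vegfa) and a median of -0.09, beside 6.8% higher and 5.31% lower of all genes, again near the background. Bhlhe40 stood at 380.2 CPM (360.4 to 401) in RSPO3-OE T cells against 187 CPM (168 to 206) in Ctrl, while Myc stood at 22.4 CPM (17.8 to 27.8) in RSPO3-OE against 52.4 CPM (43.0 to 63.2) in Ctrl and Vegfa at 23.8 CPM (19.0 to 29.4) in RSPO3-OE against 40.7 CPM (32.5 to 50.4) in Ctrl. Without the T cells holding Hmga2 UMIs, Vegfa gave 46 UMIs in RSPO3-OE against 34 in Ctrl, under the limit of 100, with a log2 ratio of -0.66 (-1.33 to 0.02), while Myc had -1.79 and Bhlhe40 0.97. Bhlhe40 was thus higher in RSPO3-OE in all 3 classes, with log2 ratios of 0.49 in tumour cells, 1.498 in macrophages and 1.03 in T cells.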

How the data were processed

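The authors deposited raw UMI counts, as 1 matrix of genes by barcodes per library. The labels' protocols name Cell Ranger 3.0.1 and mm10, the header of the matrices gives version 3.1.0, and the kit was a droplet 3′ kit, per the labels. Barcodes under 200 genes or over 20% mitochondrial UMIs (150 in RSPO3-OE, 311 in Ctrl) and doublets marked by Scrublet at an expected rate of 0.05 (171 and 95) were left out. The class rules left 16.7% and 17.4% of kept cells in no class, and 25 and 7 cells in both the tumour cell and the macrophage class.

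UMIs were summed per class and divided by the class total (CPM). Intervals are exact, Poisson for levels, Clopper-Pearson for shares and binomial for ratios, and a count of 0 was set to 3 counts in ratios. No test was run. Aldoa is listed under 2 identifiers, and the one with most UMIs was used. Coordinates are those of GRCm38. The steps were tested on simulated data. The tools were Python 3.11.15, scanpy 1.11.5, scipy 1.17.1, numpy 2.4.6, pandas 2.3.3 and matplotlib 3.10.9. Genes given with full values are, per class, the 6 highest and 6 lowest ratios with at least 100 UMIs and 20 CPM, the paralog groups, and up to 3 per direction of the wider list. Other genes, the Rspo3 split, the ratios within ranked cells, the promoter search and the promoters printed were chosen after values were seen. The members and lists were chosen with earlier results of these data known. Alternatives changed the scaling, weight and depth of cells, filters, class rules and ranking.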

Additional observations from a re-analysis of the deposited data

Results flagged for a closer look

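Egln3, the HIF prolyl hydroxylase that is itself a HIF target, had log2 ratios of RSPO3-OE over Ctrl that pointed in opposite directions between classes: 0.20 (0.15 to 0.25) in tumour cells, 0.35 (0.14 to 0.57) in macrophages and -0.76 (-1.31 to -0.21) in T cells. The difference between classes was not tested. The T cell value is uncertain in sign, and it rests on 60 UMIs in RSPO3-OE and 58 in Ctrl. It turned to 0.13 when each cell's own CPM was averaged and to 1.17 with cells thinned to 2000 UMIs, where Egln3 had under 100 UMIs. Without the T cells holding Hmga2 UMIs, 33 UMIs in RSPO3-OE and 21 in Ctrl were left, with a log2 ratio of -0.45 (-1.28 to 0.42). Without those holding Hmga2 or C1q UMIs, 23 and 20 UMIs were left, with a log2 ratio of -0.94 (-1.87 to -0.00328).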

How the results depend on the processing

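No paired analysis was possible because each group has 1 library and no test was made, and for the same reason no replicate could be left out. In tumour cells the median log2 ratio of the members was -0.0571 with median-of-ratios scaling and -0.11 with at least 10 UMIs in place of 100. When each cell's own CPM was averaged, 4 macrophage (Pfkm, Pfkp, Ndrg1 and Ddit4) and 3 T cell members (Slc2a3, Hk2 and Hif1a) were at least 1.5-fold apart. In T cells that count was 1 (Hif1a) with cells thinned to 2000 UMIs, where Slc2a3 had under 100 UMIs, 3 without cells holding Hmga2 UMIs (Slc2a3, Hif1a and Ankrd37) and 3 without cells holding Hmga2 or C1q UMIs (Slc2a3, Hif1a and P4ha1), both chosen after seeing the data. The share of all genes past 1.5-fold was not computed with own CPM or with thinning. Whether the changed counts concern the members or all genes is thus not known. Egln3 in T cells turned to 0.13 with own CPM and to 1.17 with thinning, where it had under 100 UMIs. Ankrd37 in T cells turned to 0.0704 with thinning. The median log2 ratio of glycolysis genes, top over bottom, was 1.49 (RSPO3-OE) and 1.53 (Ctrl) in tumour cells and 1.44 in RSPO3-OE macrophages with wider strata. Ranked by Egln3, Ankrd37 and Ndrg1 alone it was 1.59 and 1.76 in tumour cells and 1.095 and 0.996 in macrophages. It was 1.97 in RSPO3-OE tumour cells with doublets kept, and 1.38 in RSPO3-OE macrophages thinned to a lower depth. With genes of at least 20 CPM over all cells in place of 100 UMIs over both ends, a choice made after seeing the data, it was 2.10 in RSPO3-OE tumour cells. With 100 UMIs over both ends and no other change, it was 1.72 (RSPO3-OE) and 1.68 (Ctrl) in macrophages. Of the 17 glycolysis genes in tumour cells, 15 (RSPO3-OE) and 16 (Ctrl) were at least 1.5-fold higher at the top with wider strata. This count was 16 and 16 with a lower depth, and 16 and 17 with the ranking by 3 genes or with up to 10% mitochondrial UMIs. The share of all genes was not computed under these alternatives. The cause of these moves was not tested. Depth limits T cells most, where 29 of 35 members reached 100 UMIs.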
